A study of Mus musculus with 2 samples.

Results

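The leukocyte integrins and Icam1 are 10 adhesion genes chosen by symbol: Itgal, Itgam, Itgax, Itga1, Itga4, Itgae, Itgb1, Itgb2, Itgb7 and Icam1. All 10 were among the 27998 gene rows of both libraries, and 11 rows carried one of these symbols, since Itgam named a pair of rows. The measurements are unique molecular identifier (UMI) counts, which tally captured transcripts at their 3' ends, in single CD45+ leukocytes. These were sorted on day 14 after inoculation from B16 tumours, which grow from a transplanted mouse melanoma line. The tumours of one library grew in Nrp1L/L Foxp3Cre-YFP animals, whose Nrp1 alleles are floxed and whose regulatory T (Treg) cells make Cre recombinase from the Foxp3 locus. Those of the control library grew in Foxp3Cre-YFP animals, so both genotypes carried the allele for Cre and yellow fluorescent protein. All mice were female C57BL/6 of 5 weeks of age, no in vitro treatment was given, and the labels do not say how many animals or tumours went into a library.

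Integrins are cell surface receptors made of an alpha and a beta chain. Itgal, Itgam and Itgax encode alpha chains that pair with the beta chain of Itgb2. The pairs are LFA-1, Mac-1 and the CD11c integrin, which hold T cells, NK cells and myeloid cells to endothelium and to other leukocytes. Icam1 encodes their ligand, which inflammatory cytokines switch on in many cell types. Itga4 pairs with Itgb1 or Itgb7 for entry into inflamed or gut tissue, Itgae pairs with Itgb7 to bind E-cadherin, and Itga1 pairs with Itgb1 to bind collagen.

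The Nrp1L/L library held 1275 kept cells with a median of 5332 UMIs, and the control library 1302 kept cells with a median of 8056.5. With 1 library per genotype, the effects of genotype, animal, tumour and library cannot be told apart, so no test was made, and every 95% interval covers counting error only. The libraries shared 3 cell barcodes. Cells were placed in 6 classes by UMI minimums on genes that are not members. There were 391 Nrp1L/L and 233 control CD8 T cells, 357 and 195 other CD3 cells, 186 and 81 NK cells, 87 and 269 macrophages, 116 and 306 monocytes, and 29 and 74 dendritic cells. The targeted gene, Nrp1, stood at 31.8 CPM (UMIs in each 1000000 of the summed cells; 20.2 to 47.8) in Nrp1L/L and 42.7 (29.7 to 59.4) in control cells with Treg markers, but 3' tags can lie outside a floxed part, so these counts do not check the deletion. The T cell, NK, macrophage, monocyte and dendritic marker lists each had their highest sum in their own class in both libraries, with the NK list at 21330 CPM in Nrp1L/L and 10980 in control NK cells. Each list includes the genes that set its class, so this was largely fixed by the class rules and is no independent check of them. Monocyte markers in the dendritic class summed to 31570 CPM in Nrp1L/L against 5762 in control, and Zbtb46, a defining dendritic gene, had 1 UMI in Nrp1L/L against 21 in control.

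**Figure D1:**
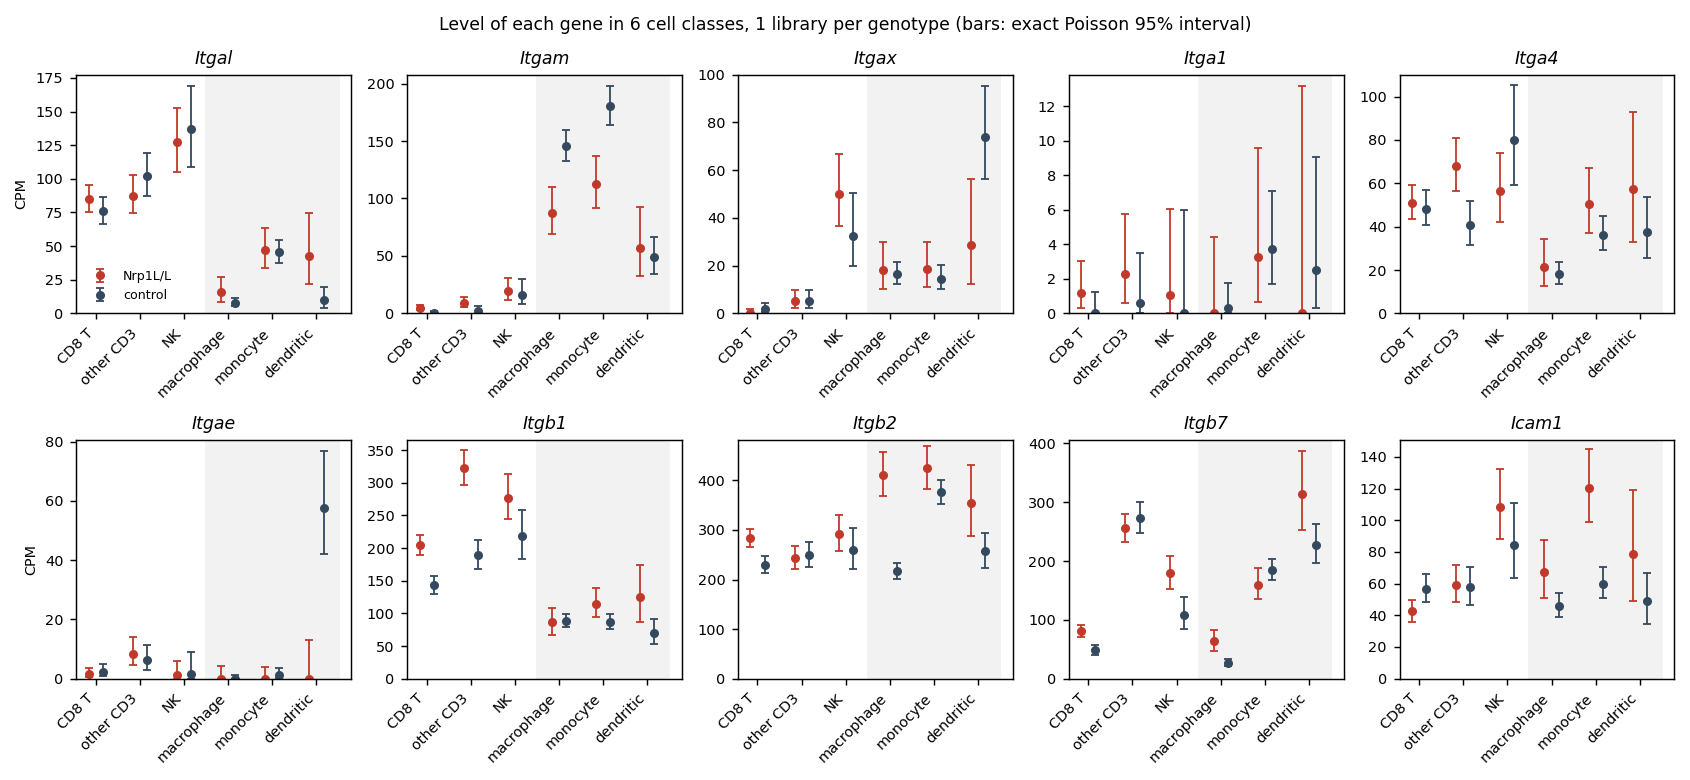
CPM (vertical axes) of each gene in 6 cell classes, with Nrp1L/L in red on the left and control in blue on the right of each pair; bars are exact Poisson 95% intervals and grey marks the myeloid classes. Itgal stood highest in lymphoid classes, Itgam in monocytes and macrophages, and Itgae in control dendritic cells.

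A gene was counted as higher or lower where its CPM differed at least 1.5-fold and both libraries together gave at least 20 UMIs. Counts of members are set beside the share of all genes that passed the same rule. Among CD8 T cells, 6 of 10 members reached the minimum, 1 was higher and 0 were lower, against 16.6% of genes higher and 13.8% lower. For other CD3 cells these were 8 members, 3 higher and 0 lower, against 18.2% and 15.1% of genes. NK cells gave 8 members, 2 higher and 0 lower, against 23.6% and 12.7%. In macrophages 8 members gave 3 higher and 1 lower, against 14.3% and 24.7%. The monocyte class gave 8 members, 1 higher and 1 lower, against 16.4% and 18.6%, and the dendritic class 9 members, 4 higher and 2 lower, against 24.3% and 21.9%. The share of members that were higher lay above that of all genes in other CD3 cells, macrophages and dendritic cells, and close to or below it in the other classes, over at most 9 members. The members' median log2 ratio, Nrp1L/L over control, lay between 0.23 in CD8 T cells and 0.47 in dendritic cells, while that of all genes lay between -0.12 in macrophages and 0.09 in NK cells.

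**Figure D2:**
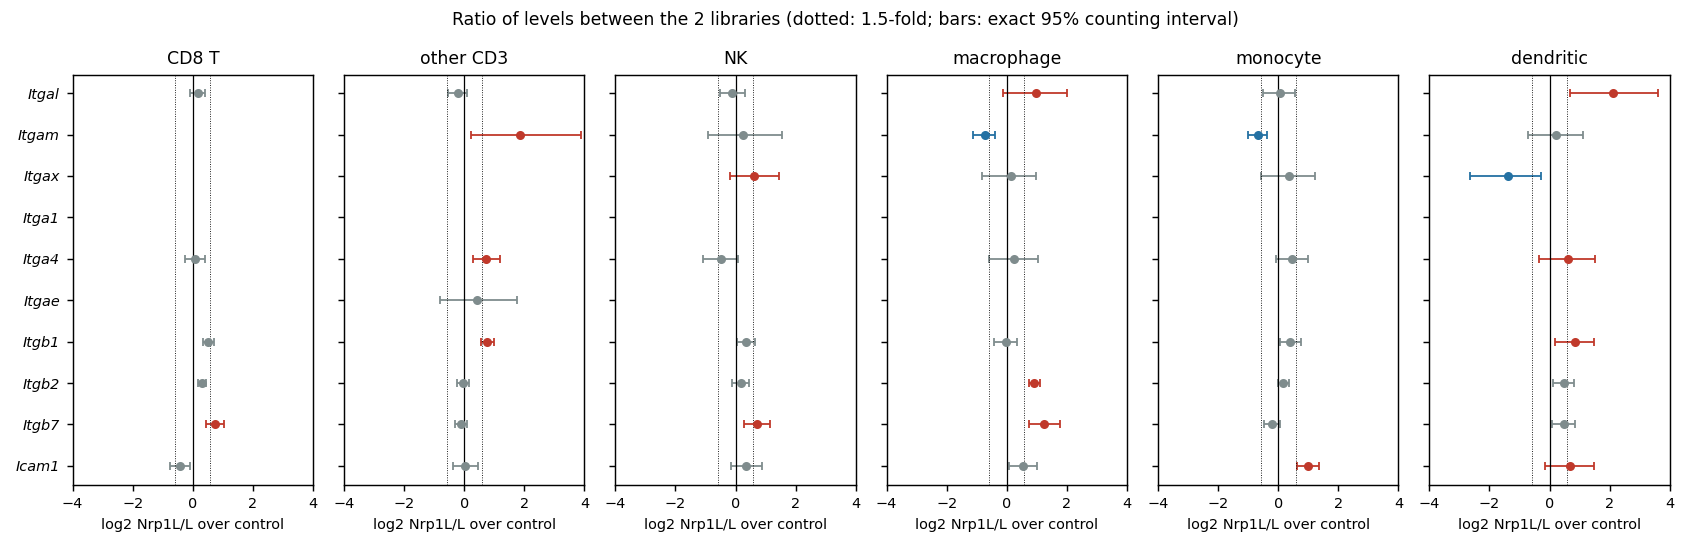
Log2 ratio of CPM, Nrp1L/L over control (horizontal axes), for members that reached 20 UMIs in both libraries together, with exact 95% counting intervals; red marks at least 1.5-fold higher, blue at least 1.5-fold lower, grey the rest. Itgae in dendritic cells is not drawn because Nrp1L/L had 0 UMIs. Icam1 and Itgam in monocytes lie on opposite sides of 0, at 1.00 and -0.68.

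Icam1 (ENSMUSG00000037405, chromosome 9, 21015985 to 21028817, plus strand, GRCm38) was the 1 member counted as higher in monocytes. Its level was 120.5 CPM (99.0 to 145) in Nrp1L/L monocytes, from 110 UMIs in 43 of 116 cells, and 60.05 (50.6 to 70.7) in control monocytes, from 144 UMIs in 77 of 306 cells. That is a log2 ratio of 1.00 (0.63 to 1.37), and it lay between 0.94 and 1.09 in the 13 alternatives run. After every cell was thinned to 2500 UMIs, 20.7% of Nrp1L/L and 11.4% of control monocytes had an Icam1 UMI, though no class lacks Icam1 to serve as a background. Median depths in this class were close, at 7804 UMIs in Nrp1L/L and 7731 in control.

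Monocytes with at least 3 UMIs of Cxcl9 and Cxcl10 together, chemokines that interferon-gamma switches on, were 64 of 116 Nrp1L/L monocytes (55.2%) and 57 of 306 control monocytes (18.6%). In these cells Icam1 stood at 169.6 CPM (135 to 209.7) in Nrp1L/L and 95.7 (70.5 to 127) in control, a log2 ratio of 0.83 (0.30 to 1.37). Among the remaining monocytes it stood at 60.8 (39.3 to 89.7) in Nrp1L/L and 50.6 (41.0 to 61.8) in control, with a log2 ratio of 0.26 (-0.43 to 0.91). The interval of the second ratio spans 0, and the difference between the sub-groups' ratios was not tested. In both libraries the chemokine-rich cells held more Icam1 than the other monocytes, with intervals that did not overlap. Basophil and mast cell markers also differed in this class, with 4 of 6 genes detected and 61.3 CPM in Nrp1L/L monocytes against 0 of 6 in control, and their part in the result was not tested.

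Icam1 did not differ in one direction across the other classes. In macrophages it stood at 67.2 CPM in Nrp1L/L and 46.1 in control, a log2 ratio of 0.54 (0.07 to 1.00; 0.38 to 0.73 over the alternatives), and NK cells held 109 and 84.7 (0.36, -0.14 to 0.87). The NK ratio was 1.08 on cells thinned to 2500 UMIs. Dendritic cells counted as higher, at 78.7 in Nrp1L/L and 48.8 in control (0.69, -0.14 to 1.48), from 22 and 39 UMIs, but the interval spanned 0 and the ratio was -0.082 with the monocyte rule applied before the dendritic one. Other CD3 cells held 59.3 in Nrp1L/L and 57.6 in control. CD8 T cells lay the other way but under 1.5-fold, with 42.4 in Nrp1L/L and 56.8 in control (-0.42, -0.75 to -0.09). Their ratio was -0.16 when every cell was given equal weight. Cycling cells, which made up 23.8% of Nrp1L/L and 42.1% of control CD8 T cells, had 36.0 in Nrp1L/L and 41.6 in control (-0.21, -0.74 to 0.31). CD8 T cells that were not cycling stood further apart, at 47.4 (38.2 to 58.2) in Nrp1L/L and 82.6 (66.4 to 101) in control, a log2 ratio of -0.80 (-1.24 to -0.36). Median depth of these cells was 5876.5 UMIs in Nrp1L/L and 6248 in control.

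**Figure D3:**
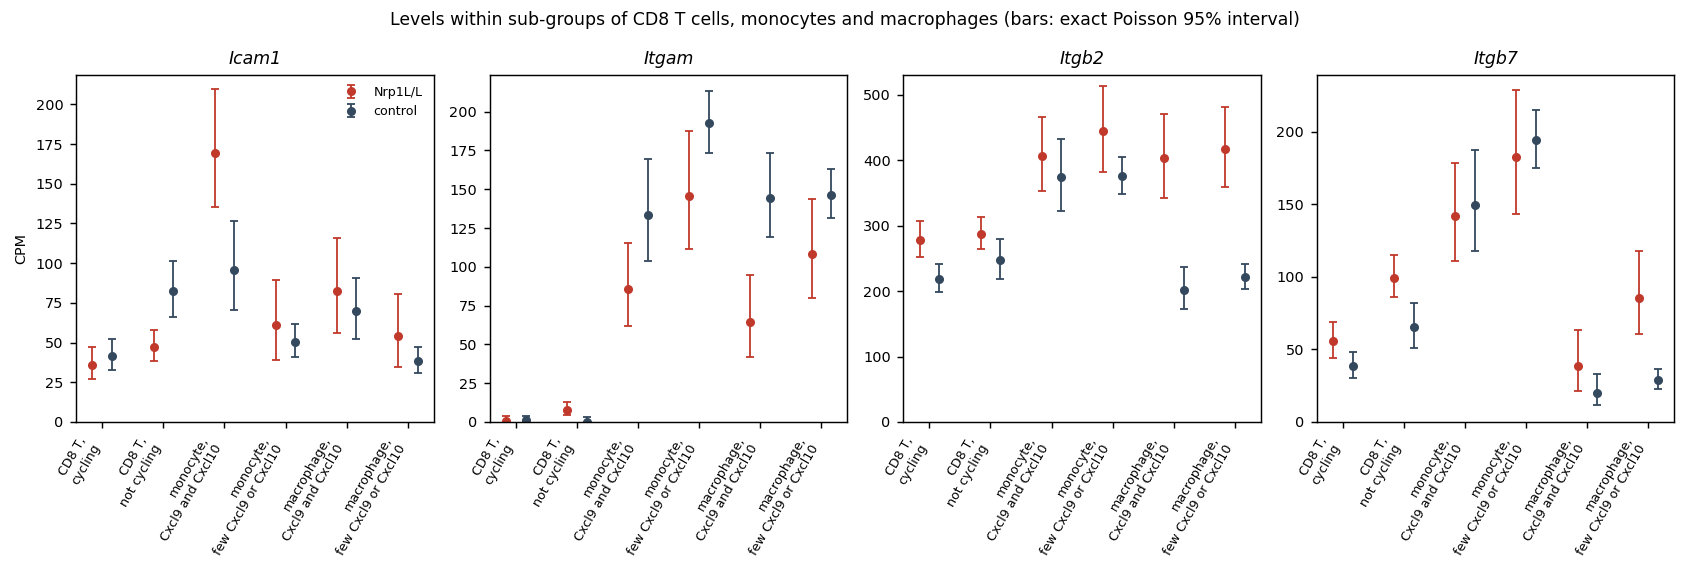
CPM (vertical axes) of Icam1, Itgam, Itgb2 and Itgb7 in CD8 T cells split by cycling, and in monocytes and macrophages split at 3 UMIs of Cxcl9 and Cxcl10 together, with Nrp1L/L in red on the left and control in blue on the right; bars are exact Poisson 95% intervals. Icam1 was highest in chemokine-rich Nrp1L/L monocytes, and Itgb2 was higher in both kinds of Nrp1L/L macrophages.

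Of the 10 members, 7 had an entry in the RefSeq promoter table (GRCm38.p6). The promoters of Icam1 and Itgam are shown because their ratios had opposite signs in monocytes. Each line gives the 250 bases before the RefSeq start, on the plus strand, with matches to motifs in capitals. Icam1 lies at chr9:21015690-21015939 and Itgam at chr7:128062390-128062639.
Icam1: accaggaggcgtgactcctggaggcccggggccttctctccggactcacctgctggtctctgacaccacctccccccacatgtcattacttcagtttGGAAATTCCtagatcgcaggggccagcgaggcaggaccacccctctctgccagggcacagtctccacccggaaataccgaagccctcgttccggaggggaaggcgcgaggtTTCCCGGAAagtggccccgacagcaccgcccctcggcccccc
Itgam: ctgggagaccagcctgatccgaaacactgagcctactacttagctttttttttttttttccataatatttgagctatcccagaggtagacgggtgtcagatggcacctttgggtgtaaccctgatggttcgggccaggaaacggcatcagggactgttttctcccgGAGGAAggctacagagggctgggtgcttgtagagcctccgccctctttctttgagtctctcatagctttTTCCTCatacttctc
The capitals in Icam1 are TTCCCGGAA, bases 42 to 34 before the start, which fits the interferon-gamma activated motif TTCNNNGAA, and GGAAATTCC, bases 153 to 145 before it, a kappaB motif. In Itgam they are GAGGAA, the core that the myeloid factor PU.1 recognises, at bases 84 to 79, and its reverse complement TTCCTC at bases 15 to 10. On either strand, 7.02% of 32851 promoters of this length hold the first motif, 0.29% the second and 23.25% the third. Among the other members with an entry, Itgb1 held the third motif, at bases 9 to 4 before its start. Itgax, Itga1, Itga4 and Itgb7 held none of these motifs. The motifs were chosen after the sequences were seen, and a match is a description of letters, not of binding.

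Itgam (ENSMUSG00000030786, chromosome 7, 128062640 to 128118491, plus strand), the Mac-1 alpha chain, was lower in Nrp1L/L monocytes and macrophages. Monocytes held 113 CPM (92.1 to 137) in Nrp1L/L and 180.1 (164 to 198) in control, a log2 ratio of -0.68 (-0.999 to -0.362). Macrophages held 87.6 (68.7 to 110.2) in Nrp1L/L and 146 (133 to 160.0) in control, a log2 ratio of -0.74 (-1.11 to -0.38). The intervals of the levels did not overlap in either class. The monocyte ratio was -0.49 on thinned cells and the macrophage ratio -0.45 with classes assigned on thinned cells, both within 1.5-fold. In chemokine-rich macrophages Itgam stood at 64.2 in Nrp1L/L and 144 in control (-1.17, -1.85 to -0.53), and in the other macrophages at 108 and 147 (-0.44). In chemokine-rich monocytes it stood at 85.8 and 133.5 (-0.64, -1.23 to -0.065), and in the other monocytes at 146 and 192.5 (-0.40), under 1.5-fold. Over all kept cells the level was 30.9 in Nrp1L/L and 79.8 in control (-1.37), a larger gap than within either class, and monocytes and macrophages made up 9.10% and 6.82% of Nrp1L/L cells and 23.5% and 20.7% of control cells.

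Lymphoid cells held little Itgam. NK cells, which carry Mac-1 as they mature, had 19.6 CPM in Nrp1L/L and 16.3 in control, from 18 and 10 UMIs, a log2 ratio of 0.26 (-0.93 to 1.54) that was 3.11 with class minimums doubled. Other CD3 cells had 16 UMIs in Nrp1L/L and 4 in control, a log2 ratio of 1.85 (0.22 to 3.89). Of these, 11 and 1 lay in cells that also met the NK rule, and the ratio was -0.41 when a cell could count in several classes. CD8 T cells had 16 UMIs in 5 Nrp1L/L cells, with 9 in 1 cell, and 2 UMIs in control. Lyz2, a myeloid gene that T and NK cells lack, stood at 0.206% to 0.234% of the monocyte level in Nrp1L/L lymphoid classes and 0.366% to 0.525% in control ones. Lyz2 sets the monocyte class, and lymphoid cells with at least 10 of its UMIs were left out, so the class rules lowered these shares. Csf1r, which no class rule uses, stood at 0% to 0.461% in Nrp1L/L and 0.785% to 1.81% in control lymphoid classes, from at most 6 UMIs in a class. Itgam in NK cells stood at 17.3% of the monocyte level in Nrp1L/L and 9.04% in control, above both genes. In control CD8 T cells Itgam stood at 0.378%, near Lyz2 and below Csf1r (0.985%). The second row with the symbol Itgam (ENSMUSG00000108596, named Gm49368 in GENCODE M21, chromosome 7, 128062683 to 128128160) overlaps Itgam on the same strand, so counting could split reads between them. It held 22 UMIs in Nrp1L/L and 25 in control and was kept apart.

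Itgb2 (ENSMUSG00000000290, chromosome 10, 77530252 to 77565708, plus strand), the shared beta chain of LFA-1, Mac-1 and the CD11c integrin, was found in every class and differed most in macrophages. There it stood at 411 CPM (368 to 457) in Nrp1L/L, from 342 UMIs, and 217 (201 to 234) in control, from 683 UMIs. The log2 ratio of 0.92 (0.73 to 1.11) kept to between 0.71 and 1.11 in 13 alternatives. Thinned to 2500 UMIs, 59.8% of Nrp1L/L and 35.3% of control macrophages had an Itgb2 UMI. The ratio was alike in chemokine-rich macrophages, with 403 in Nrp1L/L and 202 in control (1.00, 0.67 to 1.32), and in the others, with 417 and 222 (0.91, 0.66 to 1.15). Macrophages of the Nrp1L/L library were thus near the monocyte level of 424, whereas control macrophages lay below the control monocyte level of 376. The monocyte gene Ly6c2 stood at 2161 CPM in Nrp1L/L and 817 in control macrophages, and the macrophage gene Apoe at 2818 and 4260. Lyz2, at 6668 and 8330, and C1qa, at 5147 and 4388, went the other way. The part of macrophage make-up in the Itgb2 and Itgb7 ratios was not tested. Cycling cells were 4.60% of Nrp1L/L and 20.8% of control macrophages, and without them the Itgb2 ratio was 0.71. Elsewhere Itgb2 was within 1.5-fold, with 284 in Nrp1L/L and 230 in control CD8 T cells (0.30, 0.16 to 0.45) and 244 and 250 in other CD3 cells (-0.03). NK cells held 292 and 260.5 (0.17), and dendritic cells 354 and 257 (0.465, 0.104 to 0.818).

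Itgal (ENSMUSG00000030830, chromosome 7, 127296260 to 127335138, plus strand), the LFA-1 alpha chain that T and NK cells use to hold their targets, was a lymphoid gene here. NK cells stood first in both libraries, at 127 CPM (105 to 152) in Nrp1L/L and 137 (109 to 169) in control. Other CD3 cells followed, at 87.6 in Nrp1L/L and 102 in control, then CD8 T cells at 84.9 and 76.2, and monocytes at 47.1 and 45.5. In Nrp1L/L the intervals of other CD3 and CD8 T cells overlapped, and in control those of NK and other CD3 cells did. Intervals of all 4 log2 ratios spanned 0, the CD8 T one being 0.16 (-0.10 to 0.41). Within other CD3 cells, those with neither Treg markers nor Cd4 were lower, at 81.8 in Nrp1L/L and 137 in control (-0.74, -1.275 to -0.215). Cells with Treg markers (at least 2 UMIs of Il2ra and Ikzf2) held 85.8 and 78.1 (0.14), and Cd4 cells without them 101 and 108 (-0.09), with intervals that spanned 0. Macrophages gave only 13 UMIs in Nrp1L/L and 25 in control (0.97, -0.12 to 1.99). On thinned CD8 T cells, an Itgb2 UMI was found in 35 of 62 Nrp1L/L cells with an Itgal UMI (56.5%) and in 39.2% of those without, against 17 of 36 control cells (47.2%) and 34.0%, and the intervals overlapped in each library.

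Itgax (ENSMUSG00000030789, chromosome 7, 128129547 to 128150657, plus strand), which encodes CD11c and is widely used to mark dendritic cells, stood highest in NK cells of the Nrp1L/L library and in dendritic cells of the control library. NK cells held 49.96 CPM (36.6 to 66.6) in Nrp1L/L and 32.6 (19.9 to 50.3) in control, a log2 ratio of 0.62 (-0.17 to 1.45), which was 0.22 without cycling cells. Dendritic cells held 28.6 (12.4 to 56.4) in Nrp1L/L, from 8 UMIs, and 73.8 (56.2 to 95.3) in control, from 59. Macrophages and monocytes held between 14.6 and 18.6 in either library, with ratio intervals that spanned 0.

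Dendritic cells differed in make-up between the libraries, so their integrin values are given by kind. Xcr1, the receptor that marks cross-presenting dendritic cells, was found in 1 of 29 Nrp1L/L and 15 of 74 control dendritic cells, and 24 and 52 of the rest had Cd209a. Itgae (ENSMUSG00000005947, chromosome 11, 73090583 to 73147446, plus strand), whose protein CD103 marks migratory cross-presenting cells, had 0 UMIs in Nrp1L/L and 46 in control dendritic cells. Of the 46, 44 lay in the 15 Xcr1 cells, at 229.5 CPM (167 to 308). A floor of 3 counts over the Nrp1L/L class, 10.7 CPM, lay 5.37-fold below the control Itgae level, which is not a lower bound on the difference. The counting interval of the log2 ratio in dendritic cells had an upper limit of -2.067. With 1 Xcr1 cell in Nrp1L/L, the level within that kind could not be compared.

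Among Cd209a dendritic cells, Itgax had 1 UMI (4.55 CPM) in Nrp1L/L and 40 (75.3) in control, a log2 ratio of -4.05 (-9.39 to -1.49). The 1 Nrp1L/L Xcr1 cell held 5 Itgax UMIs (327.5 CPM), against 18 (93.9) in control Xcr1 cells (1.80, 0.018 to 3.285). Itgb7 stood at 369 in Nrp1L/L and 224 in control Cd209a cells (0.72, 0.29 to 1.14), with 315 and 228 over the whole class (0.466), and Itgam at 72.8 and 71.5. These Nrp1L/L values come beside the monocyte markers given above, with Ly6c2 at 2010 CPM in Nrp1L/L and 676 in control dendritic cells, and the part of monocytes in them was not tested. With the monocyte rule applied before the dendritic one, 11 Nrp1L/L and 58 control dendritic cells were left, and the class ratio of Itgax was -0.33 in place of -1.37. Without the highest cell of each library it was -2.48. Itgal, from 12 UMIs in Nrp1L/L and 8 in control dendritic cells (2.10, 0.688 to 3.596), rests on few counts.

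**Figure D4:**
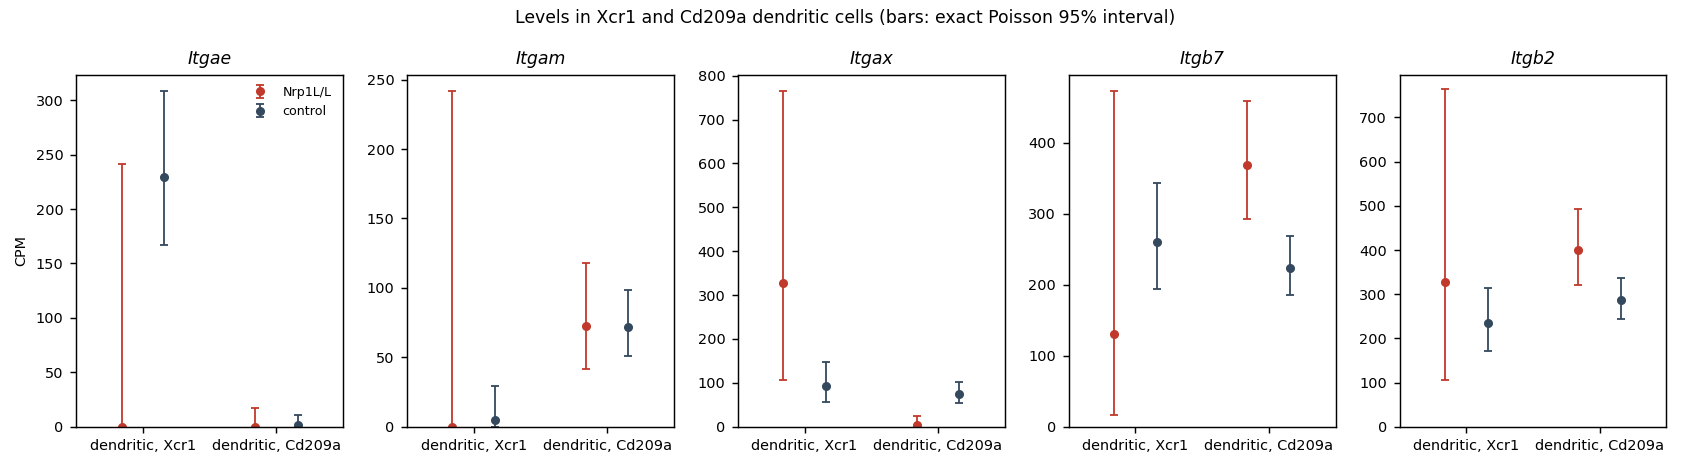
CPM (vertical axes) of Itgae, Itgam, Itgax, Itgb7 and Itgb2 in Xcr1 and Cd209a dendritic cells, with Nrp1L/L in red on the left and control in blue on the right; bars are exact Poisson 95% intervals. Itgae lay in control Xcr1 cells, and the Nrp1L/L Xcr1 values come from 1 cell.

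Itgb7 (ENSMUSG00000001281, chromosome 15, 102215995 to 102231944, minus strand), the beta chain of the gut homing receptor and of CD103, was lowest in macrophages and yet differed most there. Macrophages held 63.6 CPM (47.7 to 83.2) in Nrp1L/L, from 53 UMIs, and 26.7 (21.3 to 33.1) in control, from 84 UMIs, a log2 ratio of 1.25 (0.73 to 1.76). It lay between 0.95 and 1.80 in 13 alternatives. Macrophages with few chemokine UMIs had 85.6 in Nrp1L/L and 28.9 in control (1.57, 0.955 to 2.16). Chemokine-rich ones had 38.5 and 20.2, from 15 and 16 UMIs (0.93, -0.19 to 2.04), an interval that spanned 0.

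In lymphoid cells the Itgb7 ratios differed in sign. CD8 T cells held 80.5 in Nrp1L/L and 48.3 in control (0.74, 0.44 to 1.04), with 0.54 in cycling and 0.61 in other cells, and NK cells 179 and 109 (0.72, 0.30 to 1.15). Other CD3 cells held 255.5 and 273 (-0.10, -0.29 to 0.10). Monocytes held 159.9 and 185 (-0.21), a ratio of -0.63 on thinned cells. Thinned CD8 T and NK cells gave ratios within 1.5-fold, at 0.46 and 0.37. Other CD3 cells that also met the NK rule held 232 in Nrp1L/L and 124 in control (0.91, 0.29 to 1.54), above 1.5-fold, and those that did not held 259 and 311 (-0.265, -0.469 to -0.061). With other CD3 cells split by Treg markers and Cd4, the ratios lay on both sides of 0, all under 1.5-fold. Treg-marker cells held 244 in Nrp1L/L and 324.5 in control (-0.41, -0.70 to -0.13), Cd4 cells without them 197.5 and 211.5 (-0.10), and the rest 301 and 222 (0.435, 0.099 to 0.776). The Treg-marker cells had Itgae at 18.0 in Nrp1L/L and 9.76 in control, from 13 and 8 UMIs, with a ratio interval that spanned 0. Foxp3 gave 5 UMIs in Nrp1L/L and 3 in control other CD3 cells, so these cells are named by their markers only.

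Itgb1 (ENSMUSG00000025809, chromosome 8, 128685654 to 128733200, plus strand), the beta chain that binds matrix and VCAM-1 with different alpha chains, was higher in Nrp1L/L other CD3 and dendritic cells. Other CD3 cells held 323 CPM (297 to 351) in Nrp1L/L, from 572 UMIs, and 189 (168 to 212) in control, from 302 UMIs. The log2 ratio was 0.77 (0.57 to 0.98), and 0.76 to 1.13 in 13 alternatives. Cd4 cells without Treg markers had the highest level, 635 (557 to 721) in Nrp1L/L and 315 (249.6 to 393) in control (1.01, 0.64 to 1.40). Treg-marker cells had 216 and 139 (0.64, 0.28 to 1.00), and the remaining other CD3 cells 265 and 207 (0.355, 0.003 to 0.712). CD8 T cells held 205 in Nrp1L/L and 143 in control (0.52, 0.34 to 0.69), under 1.5-fold, with almost the same value in cycling (0.48) and other (0.58) cells. Dendritic cells held 125 in Nrp1L/L and 70.1 in control (0.84, 0.184 to 1.47), a ratio of -0.40 with classes assigned on thinned cells. NK cells held 277 and 218 (0.34) and monocytes 115 and 87.2 (0.40), and macrophages 86.4 and 88.8 (-0.04, -0.43 to 0.34).

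Itga4 (ENSMUSG00000027009, chromosome 2, 79255426 to 79333123, plus strand), the alpha chain that Itgb1 and Itgb7 share, was also higher in Nrp1L/L other CD3 cells. It stood at 67.8 CPM (56.2 to 81.1) in Nrp1L/L and 40.7 (31.4 to 51.9) in control, a log2 ratio of 0.74 (0.29 to 1.20), or 0.47 with classes assigned on thinned cells. The ratio was 0.50 in Treg-marker cells, 0.69 in Cd4 cells without them and 0.93 (0.06 to 1.87) in the rest, the first of these under 1.5-fold and the intervals of the first and second spanning 0. NK cells lay the other way, at 56.5 in Nrp1L/L and 79.8 in control (-0.50, -1.09 to 0.095), under 1.5-fold. An Itgb1 UMI was found in 27 of 45 thinned Nrp1L/L other CD3 cells with an Itga4 UMI (60%, 44.3 to 74.3) and in 104 of 312 without (33.3%, 28.1 to 38.9). The control shares were 5 of 19 (26.3%, 9.15 to 51.2) and 46 of 176 (26.1%, 19.8 to 33.3). The intervals do not overlap in Nrp1L/L and overlap in control, where few cells had the gene, and the difference between libraries was not tested. This is 1 of 7 pairs looked at in 6 classes. For Itgb7 in the same Nrp1L/L cells the shares were 28.9% with an Itga4 UMI and 37.5% without, with intervals that overlapped. The Itga4 and Itgb1 pair varied in direction elsewhere, with 33.3% and 27.7% in Nrp1L/L CD8 T cells and 14.3% and 23.5% in Nrp1L/L monocytes. Basophil and mast cell markers stood at 88.7 CPM in Nrp1L/L (4 of 6 genes) and 2.51 in control other CD3 cells (1 of 6), and their part in these ratios was not tested.

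In macrophages Itga4 was near even overall (0.25, -0.60 to 1.04), with opposite values by kind. Chemokine-rich macrophages had 4 UMIs in Nrp1L/L and 26 in control (-1.68, -3.66 to -0.15), and the others 14 and 31 (1.26, 0.235 to 2.21). Monocytes held 50.4 CPM in Nrp1L/L and 36.3 in control (0.47), with -0.35 (-1.22 to 0.51) in chemokine-rich cells and 0.91 (0.16 to 1.61) in the others. Dendritic cells counted as higher, from 16 and 30 UMIs (0.61, -0.37 to 1.53), with an interval that spanned 0. CD8 T cells held 51.0 in Nrp1L/L and 48.3 in control (0.08), a ratio of 0.65 on thinned cells. Itga1 (ENSMUSG00000042284, chromosome 13, 114953096 to 115101964, minus strand), a marker of tissue-resident lymphocytes, gave 12 UMIs in Nrp1L/L and 19 in control over all kept cells, too few for any class to reach the minimum.

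The integrin pathway around the members was looked at in 3 lists: other integrin chains, genes that activate integrins or tie them to actin, and ligands. In CD8 T cells, 27 of 32 activation and linkage genes in the files reached 20 UMIs, 2 were higher and 1 lower, against 16.6% and 13.8% of all genes, with a median log2 ratio of 0.24 beside 0.00 over all genes. The higher ones were Lims1, an adaptor of integrin-linked kinase, at 105 CPM in Nrp1L/L and 57.1 in control (0.88, 0.61 to 1.15), and Cyth1, which binds the Itgb2 tail, at 38.9 and 23.5 (0.73, 0.30 to 1.17). Actn1, an actin crosslinker, was lower, at 20.9 and 52.0 (-1.31, -1.74 to -0.90). Of the other integrin chains, 3 reached the minimum and Itgb3 was lower, with 1 UMI in Nrp1L/L and 24 in control CD8 T cells (-4.79, -10.15 to -2.17).

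In monocytes, 27 activation and linkage genes reached the minimum, 3 were higher and 1 lower, against 16.4% and 18.6% of all genes, with a median of 0.07 beside -0.01 over all genes. Zyx, which gathers at stretched adhesions, had 489.7 CPM in Nrp1L/L and 227 in control (1.11, 0.92 to 1.29), and the kinase gene Ptk2b 60.3 and 35.0 (0.78, 0.27 to 1.29). Vcl was higher, with 8 UMIs in Nrp1L/L and 14 in control, and Parvg lower, with 6 and 28, and both intervals spanned 0. Of 4 ligand genes that reached it, Icam2, another LFA-1 ligand, had 60.3 in Nrp1L/L and 18.8 in control (1.68, 1.09 to 2.29), Thy1 had 22 and 6 UMIs, and Emilin1 had 0 and 38. Itgb5 was the 1 of 3 other chains that was lower, at 7.67 and 23.4 (-1.61, -2.99 to -0.47). Thy1 is a T cell surface gene, and the 9 T cell markers in the files summed to 101 CPM in Nrp1L/L and 31.3 in control monocytes, whose part in the Thy1 value was not tested.

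The remaining classes gave list genes in both directions. Of activation and linkage genes in other CD3 cells, 3 were higher and 2 lower of 27, against 18.2% and 15.1% of all genes. NK cells gave 4 and 4 of 26, against 23.6% and 12.7%. Macrophages gave 3 and 3 of 27, against 14.3% and 24.7%. Dendritic cells gave 7 and 6 of 25, against 24.3% and 21.9%, so about as many there passed in each direction as among all genes. Other integrin chains were 1 higher and 0 lower of 4 in other CD3 cells, 0 and 0 of 2 in NK cells and 0 and 2 of 5 in macrophages, and 0 of 18 reached the minimum in dendritic cells. Ligands were 0 and 0 of 2 in CD8 T cells, 1 and 0 of 2 in other CD3 cells, 1 and 1 of 2 in NK cells, 2 and 3 of 6 in macrophages and 1 and 0 of 1 in dendritic cells.

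For likeness of pattern, Pearson's r was computed over the 12 sums of class and library on log2 of CPM plus 10, among 6642 genes with at least 200 UMIs. The sums of a library share its depth, and r is a description. Closest to Itgam were Iqgap1 (0.995), Cd300lf (0.980) and Vps26a (0.974), and among the nearest to Itgal were Dusp2 (0.947) and Arhgef1 (0.944). Itgb1 lay near Shisa5 (0.978), Jakmip1 (0.972) and Leprotl1 (0.965), Itgax near P2ry14 (0.928), Hhex (0.924) and Olfm1 (0.917), and Itga4 near Was (0.922), Rgs14 (0.916) and Gm9843 (0.889). The nearest genes were less alike for Itgb2, with Gsdmd (0.887), Tmbim6 and Chmp4b (0.864 each), for Itgb7, with Gpr132 (0.884), Ramp1 (0.882) and Cytip (0.876), and for Icam1, with Rab2a (0.907) and Sp110 (0.794). Itga1 and Itgae had too few UMIs for this.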

How the data were processed

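The deposited matrices hold whole-number UMI counts per gene and barcode. Per the submitters' processing notes, the authors aligned reads to mm10 and counted with Cell Ranger 1.3, and per the labels' protocols 2600 cells were loaded and cDNA was amplified over 14 cycles. The matrices held 1301 Nrp1L/L barcodes with 2659 to 42414 UMIs and 1310 control barcodes with 3414 to 84144 UMIs. Scrublet (scanpy 1.11.5), told to expect 2% doublets, scored each library alone. Its 8 control calls were left out, but it called only 3 of the Nrp1L/L ones (0.231%), too few to have worked, so the 26 highest scores were left out there.

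CD8 T cells had at least 2 UMIs of Cd3d, Cd3e and Cd3g and 2 of Cd8a and Cd8b1. Other CD3 cells had the first alone, NK cells 2 of Ncr1 and Klrb1c, macrophages 10 of C1qa, C1qb and C1qc, monocytes 10 of Lyz2, and dendritic cells 2 of Cd209a, Flt3 and Xcr1. A cell took the first rule it met in the order CD8 T, other CD3, NK or macrophage, dendritic, monocyte. Cells that met a lymphoid and a myeloid rule (19 Nrp1L/L, 27 control) or no rule (90, 117) were left out. Cycling cells had at least 3 UMIs of a cell cycle list after thinning to 2500 UMIs. A rule on gamma-delta T cell receptor genes gave 0 cells in either library. Of 7 gamma-delta marker genes, 3 were among the gene rows, with 127 UMIs in Nrp1L/L and 115 in control other CD3 cells. Any gamma-delta T cells were therefore not separated from the other CD3 sub-groups.

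Counts were summed per class and library and scaled to 1000000 (CPM). Levels carry exact Poisson, ratios exact conditional binomial and shares exact Clopper-Pearson 95% intervals. The ratio script was tested on simulated data. Members and lists were chosen with earlier results of these data known. List genes were named if at least 1.5-fold different in CD8 T cells or monocytes, at most 6 a list, and for likeness the 3 closest genes were named, except a few that are not reported here. Sequences are RefSeq's, and member coordinates are GENCODE M21's. Alternatives covered doublets, class rules, thinning, weights, scaling with edgeR 4.0.16, minimums and the fold.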

Additional observations from a re-analysis of the deposited data

Results flagged for a closer look

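In classes and sub-groups with at least 30 cells in each library, the ratio between libraries of 3 genes was at least 1.5-fold in opposite directions in different cells, with counting intervals that excluded 0. With 1 library per genotype the difference between classes was not tested. The share of all genes that meet this rule was not computed, so the counts of genes given here cannot be set against it. The Itgam log2 ratio was 1.85 in other CD3 cells, against -0.74 in macrophages, -0.68 in monocytes, -0.64 in chemokine-rich monocytes and -1.17 in chemokine-rich macrophages. The value in other CD3 cells rests on 16 UMIs in 6 Nrp1L/L cells and 4 UMIs in control. Of these, 11 and 1 lay in cells that also met the NK rule, and the ratio was -0.41 with overlapping classes. The Itga4 log2 ratio was 0.74 in other CD3 cells, 0.93 in those with neither Treg markers nor Cd4, 0.91 in monocytes with few chemokine UMIs and 1.26 in such macrophages, against -1.68 in chemokine-rich macrophages. The Icam1 log2 ratio was 1.00 in monocytes and 0.83 in chemokine-rich monocytes, against -0.80 in CD8 T cells that were not cycling. With smaller groups of cells counted too, 5 genes had such ratios. Itgal was 2.10 in dendritic cells, against -0.74 in other CD3 cells with neither Treg markers nor Cd4, and Itgax was 1.80 in Xcr1 dendritic cells, of which Nrp1L/L had 1, against -4.05 in Cd209a dendritic cells.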

How the results depend on the processing

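No paired analysis was possible because each genotype has 1 library. Itgae in dendritic cells, counted as lower above, had 0 UMIs in Nrp1L/L and so no finite ratio, and it is left out here. Of the 46 member and class ratios that remain, 17 were at least 1.5-fold. In every alternative that gave a value, 6 of these stayed so in the same direction. They were Icam1 in monocytes, Itgb1 in other CD3 cells, Itgb2, Itgb7 and Itgal in macrophages and Itgal in dendritic cells. Itgal in dendritic cells had a value in only 8 alternatives, against 13 for Icam1 in monocytes. The Itgal ratio in macrophages rests on 13 and 25 UMIs, and its interval spanned 0 (-0.12 to 1.99). Among the alternatives of these 17, 4 values had the opposite sign: Itgam in other CD3 cells with overlapping classes (-0.41), Itga4 and Itgb1 in dendritic cells with classes assigned on thinned cells (-0.16 and -0.40), and Icam1 in dendritic cells with the monocyte rule first (-0.082). The cause was not tested. Of the 29 ratios under 1.5-fold, 16 changed sign in at least 1 alternative, such as Itgax in monocytes, 0.35 with a range of -0.41 to 0.99. Median-of-ratios scaling moved all macrophage log2 ratios by 0.11.

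Counts of members beyond the fold moved as follows. The shares of all genes were computed at the main settings only, so these counts cannot be set beside the share of all genes under each alternative. At 2-fold, 0 were higher in CD8 T and NK cells and 1 in other CD3 cells, macrophages and dendritic cells, and 0 were lower in macrophages and monocytes. With equal weight per cell, 0 were higher in CD8 T and NK cells. Levels on thinned cells gave 1 higher in NK, 2 in monocytes and 2 in dendritic cells, with 0 lower there. Classes on thinned cells gave 0 lower in macrophages and 1 higher in dendritic cells. The monocyte rule first gave 2 higher in monocytes and 1 in dendritic cells, and doubled class minimums 2 higher in monocytes. Overlapping classes gave 2 higher in CD8 T cells. Without cycling cells, 1 was lower in CD8 T cells, and 0 were higher and 1 lower in NK cells. Either scaling gave 1 higher in NK cells, with 1 lower under median-of-ratios. A minimum of 50 UMIs gave 2 higher and 1 lower in dendritic cells. A minimum of 1 UMI in each library gave 2 higher and 2 lower in CD8 T cells and 1 lower in dendritic cells. Among alternatives chosen after seeing the data, leaving out the highest cell of each library gave 4 higher in NK and 1 in dendritic cells, and summing both Itgam rows 2 higher in CD8 T cells. Low counts limit Itga1 and Itgae outside dendritic cells, and the small number of cells, 29, limits all Nrp1L/L dendritic values.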
